A study of Homo sapiens with 9 samples.

Results

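The IGF2BP2 knockout of HEK293T cells was compared with its CRISPR control by the positions of their accessible regions. HEK293T is an established line from human embryonic kidney that carries the SV40 large T antigen. Open chromatin was mapped with ATAC-seq, where Tn5, a transposase, cuts and tags DNA that is not packed into nucleosomes, with lysis and transposition after the Omni-ATAC variant. The members are all 39194 peaks of the control list and all 60262 peaks of the knockout list, 99456 regions of the 194414 in the 4 lists of the series, and 2 peaks were called shared when they had 1 bp or more in common.

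The control had the genotype WT and was made in parallel with Cas9 and a non-targeting guide. The knockout cells had received a non-integrating plasmid carrying 3 guides against IGF2BP2 together with GFP, and 1 clone grown from a single sorted cell was used. Neither group had any other treatment. Each group had 2 libraries, 1 in batch 2 and 1 in batch 3, but the authors deposited 1 peak list per group, so no spread between libraries could be measured and no test between the genotypes was possible. Clone and genotype cannot be told apart. The depth behind each list is unknown, and intervals given below are Wilson 95% intervals that cover counting error over peaks only.

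IGF2BP2 is an RNA-binding protein of the family of IGF2 mRNA-binding proteins, which bind target transcripts, many of them carrying N6-methyladenosine, and affect their stability and translation. IGF2BP1 and IGF2BP3 are mainly expressed in embryonic tissue and in tumours, whereas IGF2BP2 is also expressed in adult tissues. The proteins act on RNA rather than on DNA. In ATAC-seq, active promoters usually give wide peaks, and enhancers and other distal elements usually give narrower ones. A list of peaks does not show whether the targeted gene was disrupted. Of 9 regulators of embryonic kidney taken as markers, 5 had a peak within 1 kb of a gene end in both lists, among them LHX1, SALL1 and WT1, as did CD34 and SPI1 among 9 leukocyte markers, 1 of 5 endothelial markers, 1 of 3 muscle markers and 1 of 4 hepatocyte markers. Of 8 neural markers 6 had one in the control list and 5 in the knockout list, and of 4 pluripotent and germ cell markers none had one in either.

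The promoter sequences that carry the findings at gene starts are shown first. Each is the 200 bases before a RefSeq gene start (build GRCh38.p14), read 5′ to 3′ on the strand of the gene. Capitals mark matches, on either strand, to the GC box GGGCGG (reverse complement CCGCCC), the CCAAT box CCAAT, the AP-1 letters TGANTCA or the E-box CACGTG. The first pair comprises the target gene IGF2BP2 (chr3:185825043-185825242, minus strand), whose peak at the gene start was narrower in the knockout list, and its relative IGF2BP3 (chr7:23470492-23470691, minus strand), whose peak was in the control list alone.
IGF2BP2: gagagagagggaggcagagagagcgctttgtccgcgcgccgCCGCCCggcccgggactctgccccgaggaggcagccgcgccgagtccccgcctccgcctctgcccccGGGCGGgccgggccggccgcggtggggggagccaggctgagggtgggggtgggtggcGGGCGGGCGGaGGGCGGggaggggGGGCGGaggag
IGF2BP3: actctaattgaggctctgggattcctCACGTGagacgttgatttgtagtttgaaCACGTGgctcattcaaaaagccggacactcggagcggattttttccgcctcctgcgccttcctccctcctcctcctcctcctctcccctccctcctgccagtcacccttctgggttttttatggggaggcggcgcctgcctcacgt

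The next 4 had a peak over the gene start in the knockout list and none in the control list. THBS1 (chr15:39580879-39581078, plus strand) encodes thrombospondin-1, a matrix glycoprotein. NIBAN2 (chr9:127579032-127579231, minus strand), IFRD1 (chr7:112422974-112423173, plus strand) and PSAPL1 (chr4:7434931-7435130, minus strand) were chosen after their values had been seen, as the named genes with the widest such peak among those that hold the AP-1 letters.
THBS1: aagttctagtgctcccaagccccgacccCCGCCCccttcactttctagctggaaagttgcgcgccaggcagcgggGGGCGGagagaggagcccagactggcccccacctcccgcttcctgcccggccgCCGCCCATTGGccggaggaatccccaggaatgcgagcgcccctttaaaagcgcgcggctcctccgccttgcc
NIBAN2: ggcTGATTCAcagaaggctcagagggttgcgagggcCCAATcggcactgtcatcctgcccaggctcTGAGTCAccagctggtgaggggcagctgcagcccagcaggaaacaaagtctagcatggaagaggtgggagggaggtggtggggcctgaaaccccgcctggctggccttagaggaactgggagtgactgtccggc
IFRD1: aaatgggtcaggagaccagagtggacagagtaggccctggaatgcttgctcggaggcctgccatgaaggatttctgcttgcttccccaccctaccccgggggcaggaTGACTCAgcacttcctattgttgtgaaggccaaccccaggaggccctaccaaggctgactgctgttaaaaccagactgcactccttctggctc
PSAPL1: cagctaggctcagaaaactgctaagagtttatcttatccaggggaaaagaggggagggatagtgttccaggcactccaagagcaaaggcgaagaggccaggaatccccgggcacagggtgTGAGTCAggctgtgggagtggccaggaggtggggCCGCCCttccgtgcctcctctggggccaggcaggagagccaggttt

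The last 3 had a wide peak over the gene start in the control list and none in the knockout list. They are HOMER3 (chr19:18940306-18940505, minus strand), which encodes a scaffold of glutamate receptor signalling, GRB10 (chr7:50792875-50793074, minus strand), an imprinted adaptor that restrains insulin and IGF receptor signalling, and ZBTB7A (chr19:4065530-4065729, minus strand), a zinc finger repressor. Their GC contents were 67, 79 and 83.5%. The promoters of the genes with the widest unmatched knockout peak over the start had 83% at TTC7B, 67.5% at PAQR6, 69% at THBS1 and 58.5% at CELF3, whereas the 3 chosen for the AP-1 letters had 57 to 62.5%.
HOMER3: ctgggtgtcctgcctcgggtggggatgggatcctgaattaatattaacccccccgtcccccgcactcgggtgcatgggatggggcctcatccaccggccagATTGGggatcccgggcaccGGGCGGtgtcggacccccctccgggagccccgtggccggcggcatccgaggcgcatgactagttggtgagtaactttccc
GRB10: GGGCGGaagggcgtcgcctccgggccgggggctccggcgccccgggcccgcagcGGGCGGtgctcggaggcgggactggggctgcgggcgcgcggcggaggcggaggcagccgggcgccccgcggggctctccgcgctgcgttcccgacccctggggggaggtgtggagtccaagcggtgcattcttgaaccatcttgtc
ZBTB7A: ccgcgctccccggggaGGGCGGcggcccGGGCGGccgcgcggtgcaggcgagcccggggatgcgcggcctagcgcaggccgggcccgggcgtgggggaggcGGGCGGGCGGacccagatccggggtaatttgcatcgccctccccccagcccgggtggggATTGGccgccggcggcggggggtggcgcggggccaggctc

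Most regions that were open in the control were also in the knockout list, and the knockout list added many short ones. Of the 60262 knockout peaks, 24206 had no control counterpart (40.2%), whereas 3450 of the 39194 control peaks had no knockout counterpart (8.8%). The unmatched knockout peaks had a median width of 510 bp, and the unmatched control peaks one of 502 bp. The peaks with a counterpart were wider, with a median of 784 bp in the knockout list and 805 bp in the control list. The lower median of the knockout list as a whole, 651 against 771 bp, therefore went with its unmatched peaks: they made up 29.9% of the bases it covered, against 5.65% for the unmatched control peaks. With the knockout list held to its 39194 widest peaks, 10421 knockout and 10543 control peaks were unmatched; lists of equal length give near-equal counts by construction.

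**Figure D1:**
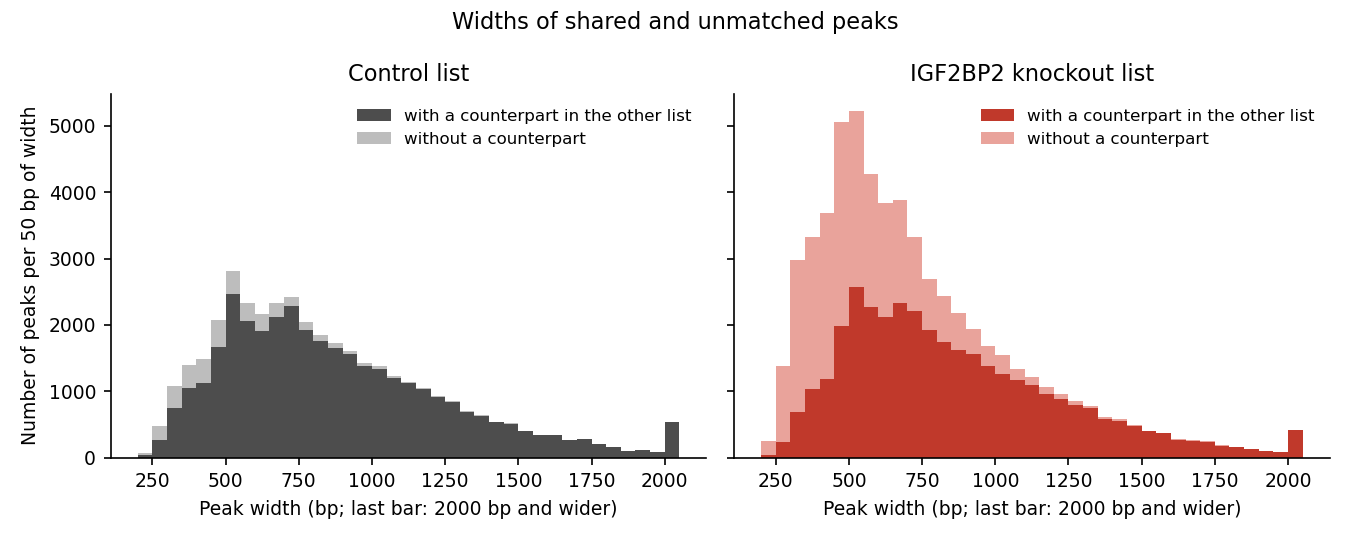
Number of peaks per 50 bp of width in the control list (left) and the IGF2BP2 knockout list (right), with shared peaks in dark and unmatched peaks in light bars stacked on them; the last bar holds peaks of 2000 bp and wider. The dark parts are alike, with medians of 805 and 784 bp, and the light part of the knockout list has a median of 510 bp.

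The unmatched knockout peaks lay mostly away from genes' ends. A peak was placed at a gene end when it lay within 1 kb of the start or end of a RefSeq gene of any kind. On assembled chromosomes, 10.5% of unmatched knockout peaks (interval 10.1 to 10.9%) were at a gene end, 51.4% were elsewhere inside a gene and 38.2% were between genes. Of the knockout peaks with a one-to-one counterpart, 42.0% (41.4 to 42.5%) were at a gene end. Among unmatched control peaks the gene-end share was 18.9% (17.6 to 20.2%). The median unmatched knockout peak was 26.7 kb from the nearest control peak, and 15.3% were 100 kb or more away. For unmatched control peaks these values were 10.1 kb and 3.51%.

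Width and position together separated the unmatched from the shared peaks. Among knockout peaks under 400 bp, 63.2% of those at gene ends and 76.7% of those between genes were unmatched. Among knockout peaks of 1000 to 1500 bp, only 1.95% of those at gene ends were unmatched (1.63 to 2.33%), against 20.3% inside genes (18.7 to 22.1%) and 30.4% between genes (27.9 to 33.1%). At 1500 bp and more the shares were lower, at 0.654% at gene ends (0.39 to 1.10%), 6.94% inside genes (4.75 to 10.1%) and 13.0% between genes (8.64 to 19%). In the control list the positions differed less: of peaks of 1000 to 1500 bp, 1.12% at gene ends, 3.34% inside genes and 2.98% between genes had no knockout counterpart.

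**Figure D2:**
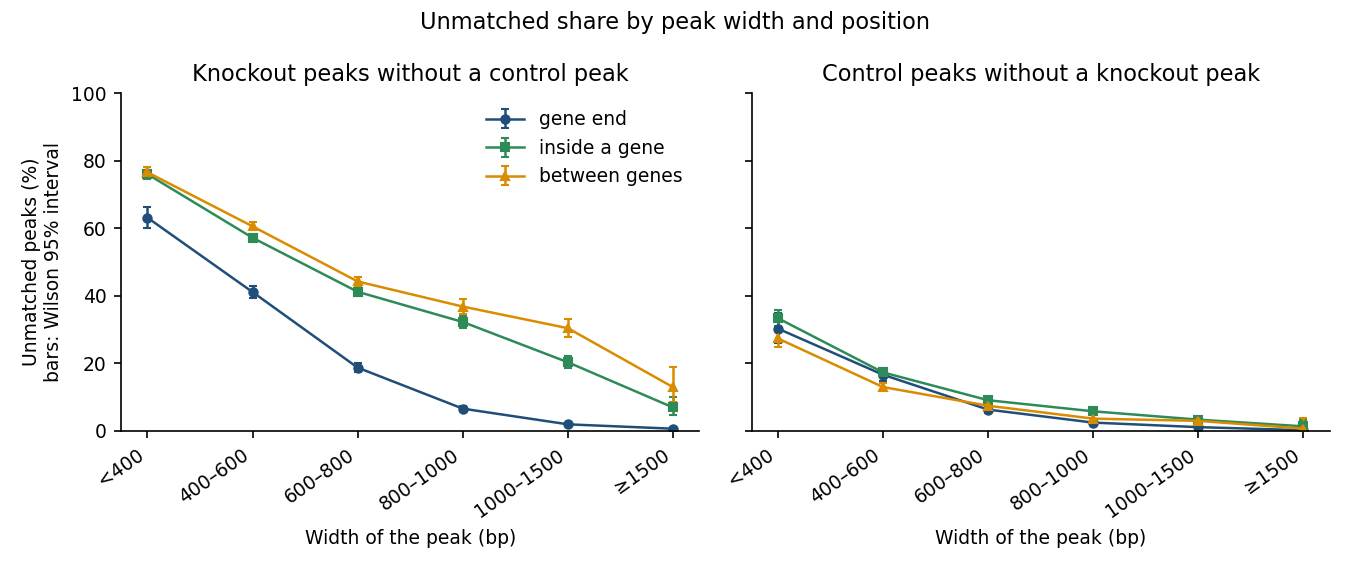
Percentage of peaks without a counterpart by width class (x axis, bp) for knockout peaks (left) and control peaks (right), at gene ends (circles), inside genes (squares) and between genes (triangles); bars are Wilson 95% intervals. In the knockout list the class of 1000 to 1500 bp ranges from 1.95% at gene ends to 30.4% between genes.

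Of the 8 widest unmatched knockout peaks, 2 were within 1 kb of a gene end and the others lay elsewhere inside genes or between them. The widest was 2004 bp (chr2:15243084-15245087) inside NBAS, a factor of Golgi-to-ER transport, 13.8 kb from the nearest control peak. A peak of 1996 bp lay in NFIA, a transcription factor gene of the nuclear factor I family (chr1:61253271-61255266) that overlaps the antisense gene NFIA-AS1, 82.5 kb from a control peak. One of 1951 bp lay 840.1 kb from the nearest coding gene, MANEA (chr6:94735438-94737388). A peak of 1889 bp was 92.1 kb from CEBPB, which encodes a transcription factor of inflammatory and acute phase genes (chr20:50284813-50286701). Others were in CPEB3, an RNA-binding regulator of translation, at 1887 bp (chr10:92123707-92125593), and in NKAIN2 at 1842 bp (chr6:124007770-124009611). The remaining 2 of the 8 widest overlapped long non-coding RNA genes, at 1973 and 1845 bp.

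Among control peaks without a knockout counterpart the widest had 1935 bp, inside MAML2, a coactivator of Notch signalling (chr11:96277699-96279633), 27.2 kb from the nearest knockout peak. A peak of 1802 bp lay in RGL1 (chr1:183733461-183735262) and one of 1675 bp in PPM1E, a protein phosphatase (chr17:58917090-58918764), the latter 160.1 kb from a knockout peak. A peak of 1776 bp beside HNRNPK, an RNA-binding protein, had a knockout peak 1.92 kb away (chr9:83964546-83966321). Peaks of 1622 bp at TSPAN4, 1596 bp at HOMER3 and 1563 bp at ARHGDIA had centres 0.267, 0.399 and 0.194 kb from a listed start of their gene.

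Unmatched knockout peaks also came in rows. With no control peak between them, 5417 peaks (22.5% of those unmatched on assembled chromosomes) formed 768 runs of 5 or more. No run of unmatched control peaks had more than 4. Unmatched peaks were 40.2% of the knockout and 8.8% of the control list, and a larger share by itself gives longer runs. The runs were not compared with a random order of peaks. The longest run held 40 peaks over 1.07 Mb of chromosome 13 (chr13:82772714-83839980), 37.2 kb from SLITRK1, a neuronal transmembrane gene, with no coding gene inside it. A run of 34 peaks on the X chromosome (chrX:121065345-123570848) overlapped GRIA3, an AMPA receptor subunit. A run of 28 lay beside CDH2, which encodes N-cadherin (chr18:28183592-30108698), 6.46 kb from the gene.

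Unmatched knockout peaks were present in the bodies of 5322 of 19862 protein-coding genes (26.8%), at 8.32 per Mb of coding gene bodies. PCDH9, a protocadherin gene on chromosome 13, held 46 over 927.5 kb, or 49.6 per Mb, and its peaks in all numbered 75 in the knockout list and 32 in the control list. GPC5 and GPC6, which encode glypicans, cell surface heparan sulfate proteoglycans, held 31 and 30 among 48 and 41 knockout peaks. PCDH9, GPC5 and GPC6 are all on chromosome 13, where 62.7% of all knockout peaks were unmatched. FOXP1, a forkhead transcription factor gene, held 27 (42.9 per Mb) and 4 unmatched control peaks. RYR2, a calcium release channel, held 24. By gene length the density was 8.503 unmatched knockout peaks per Mb under 50 kb, 8.316 at 50 to 200 kb, 8.941 at 200 to 500 kb and 7.5 at 500 kb and more. The list of neural lineage genes held 3.59 per Mb. Among control peaks the gene with most unmatched ones was GSE1, with 6, where the knockout list had 13 of its own.

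The share of unmatched peaks differed between chromosomes by more than counting error. Unmatched knockout peaks made up 62.7% of the knockout peaks of chromosome 13 (60.8 to 64.5%) and 54.7% of those of chromosome 18 (51.9 to 57.6%), but 21.4% on chromosome 11 (19.6 to 23.2%) and 22.9% on chromosome 19 (21.2 to 24.8%). Chromosome 11 also had the highest share of unmatched control peaks, 14.6% (13.1 to 16.3%), followed by chromosome 7 with 13.1% (11.6 to 14.6%). The widths of shared peaks also differed between these chromosomes. On chromosome 11 the median log2 width ratio of one-to-one pairs, knockout over control, was -0.10 and 66.5% of pairs were narrower in the knockout list, whereas on chromosomes 13 and 18 the medians were 0.04 and 0.05. Over 23 chromosomes the share of unmatched knockout peaks and the median width ratio had a Pearson r of 0.83 and a Spearman coefficient of 0.81, which is a description only, since all points come from the same pair of lists. The cause was not tested.

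**Figure D3:**
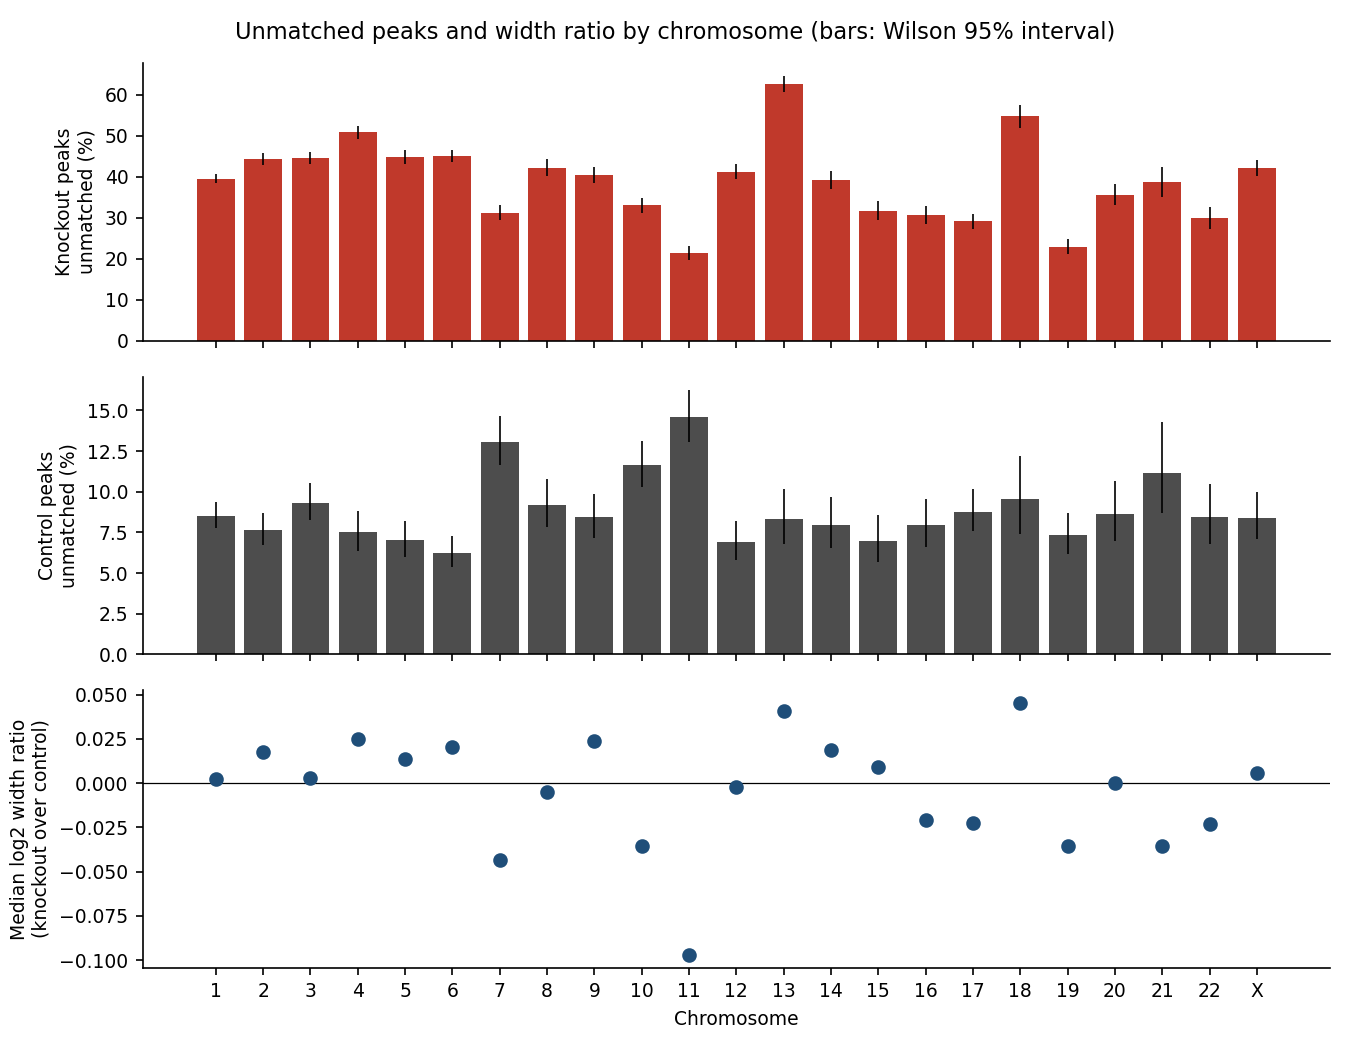
Percentage of knockout peaks without a control counterpart (top), of control peaks without a knockout counterpart (middle), and median log2 width ratio of one-to-one pairs (bottom) for chromosomes 1 to 22 and X; bars on the columns are Wilson 95% intervals. Chromosome 11 is lowest in the top and bottom panels and highest in the middle one, and chromosomes 13 and 18 are highest in the top and bottom panels.

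On chromosome 3 the lists were compared on either side of the targeted gene, and no other dividing point was compared. IGF2BP2 runs on the minus strand from its start at 185825042 down to 185643130. In the downstream part of the gene and at its end, 4 peaks of 742, 550, 462 and 802 bp were in the knockout list alone (from chr3:185642910-185643651 to chr3:185688686-185689487). In the upstream part, 2 peaks of 558 and 385 bp were in the control list alone (chr3:185734023-185734580 and chr3:185774012-185774396). The chromosome on either side of the gene also differed in its unmatched shares. Over all of chromosome 3 at lower coordinates than the gene, 45.6% of knockout peaks (44.1 to 47.1%) and 8.24% of control peaks (7.20 to 9.43%) were unmatched. At higher coordinates, up to the end of the chromosome, the shares were 10.8% of 130 knockout peaks (6.52 to 17.3%) and 25% of 152 control peaks (18.8 to 32.4%). There the 112 one-to-one pairs had a median log2 width ratio of -0.12 and 67.9% were narrower in the knockout list, against 0.0090 and 47.6% in 2118 pairs on the other side. The cause was not tested.

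At the starts of all 3 family genes the peak was narrower in the knockout list or not in it. At IGF2BP2 the peak over the gene start had 898 bp in the control list and 372 bp in the knockout list (chr3:185824539-185825436 and chr3:185825001-185825372), a log2 ratio of -1.27. Its downstream edge lay 503 bp past the start in the control and 41 bp past it in the knockout, while the upstream edges were 394 and 330 bp before the start. The neighbouring peak upstream was not narrower, at 636 and 745 bp. At IGF2BP1 the peak had 2434 bp in the control and 907 bp in the knockout list (chr17:48995574-48998007 and chr17:48995906-48996812), a log2 ratio of -1.42. At IGF2BP3 a control peak of 564 bp over the start (chr7:23470372-23470935) had no counterpart, and the nearest knockout peak was 2.99 kb away. One-to-one pairs at least 2-fold narrower in the knockout list were 1.22% of all pairs. Ratios as low as those of IGF2BP2 and IGF2BP1 were found in 0.438 and 0.239% of pairs of any width. Wide control peaks were narrower more often: at least 2-fold in 1.32% of pairs with a control peak of 800 to 1000 bp and 2.85% at 1500 bp and more. IGF2BP2 and IGF2BP3 lie at the border of the higher part of chromosome 3 and on chromosome 7, whose shared peaks had median log2 width ratios of -0.12 and -0.04, and the part of this in their widths was not tested.

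**Figure D4:**
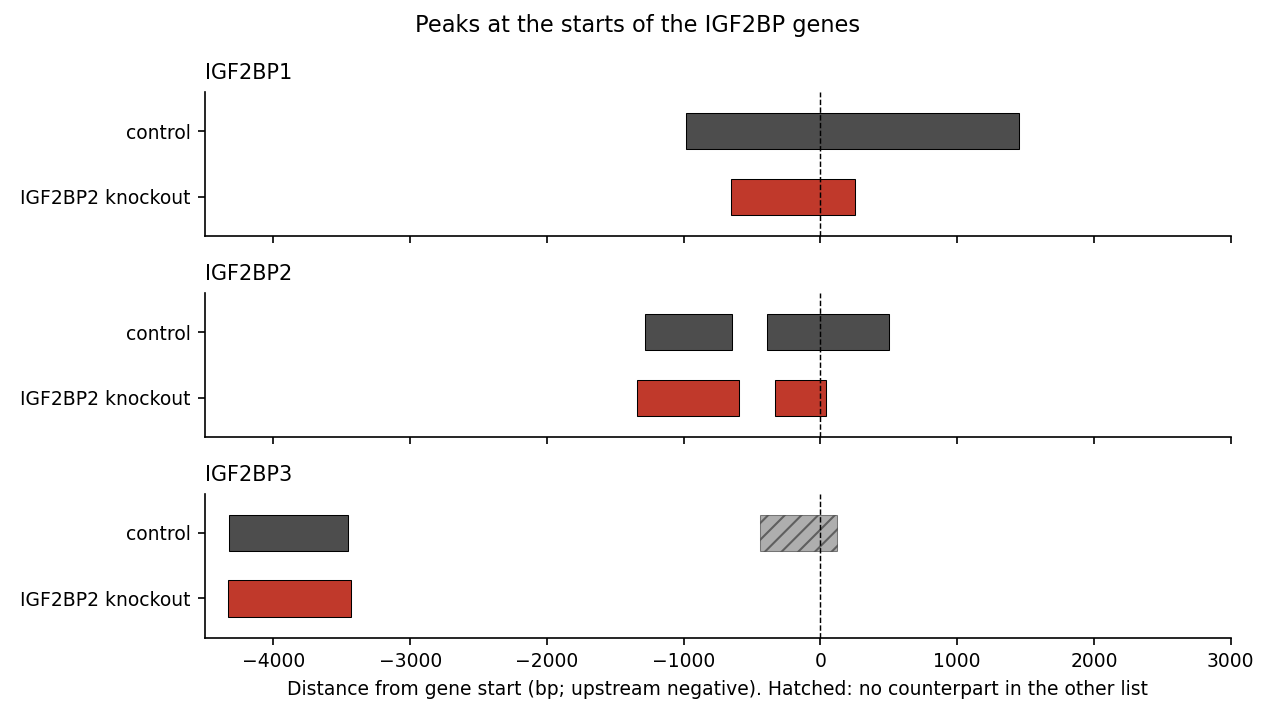
Peaks of the control list (grey) and the IGF2BP2 knockout list (red) by distance in bp from the gene start of IGF2BP1, IGF2BP2 and IGF2BP3, upstream to the left; hatched peaks have no counterpart. The peak over the start measures 2434 against 907 bp at IGF2BP1 and 898 against 372 bp at IGF2BP2, and at IGF2BP3 the 564-bp control peak stands alone.

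Shared peaks as a whole had similar widths in both lists. In 35163 one-to-one pairs the median log2 width ratio was -0.0027, with quartiles of -0.19 and 0.17, and 50.3% of pairs were narrower in the knockout list. Pairs at least 2-fold narrower numbered 430 (1.22%) and pairs at least 2-fold wider 339 (0.964%). The knockout peak lay inside the control peak in 23.1% of pairs and the control peak inside the knockout peak in 23.5%. At gene ends, 143 pairs (0.973%) were at least 2-fold narrower and 52 (0.354%) at least 2-fold wider. Elsewhere inside genes these were 207 (1.66%) and 157 (1.26%), and between genes 77 (0.985%) and 128 (1.64%). The narrower share was thus similar at gene ends and between genes, whereas the wider share differed. Wide control peaks of 1500 bp and more had a median ratio of -0.03 and wide knockout peaks one of 0.06. The sign turned with the list that defined the class, and by the geometric mean of both widths it was 0.01 in that class.

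Single pairs differed far more. Inside RNF220, a ubiquitin ligase gene, a control peak of 1381 bp met a knockout peak of 302 bp, a log2 ratio of -2.19 (chr1:44609593-44610973 in the control). An intragenic peak in ARHGAP35 had 1943 and 453 bp (chr19:46975287-46977229). At NBL1, a secreted BMP antagonist, the widths were 1568 and 379 bp (chr1:19643764-19645331). In the other direction, the peak at SSTR1, a somatostatin receptor gene, had 400 bp in the control and 1803 bp in the knockout list, a log2 ratio of 2.17 (chr14:38207639-38209441 in the knockout), and one in MED15, a Mediator subunit gene, had 323 and 1386 bp (chr22:20551188-20552573).

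Wide control peaks appeared in pieces in the knockout list more often than the reverse. A total of 405 control peaks (1.03%) overlapped 2 or more knockout peaks, and 95 knockout peaks (0.158%) overlapped 2 control peaks. The share went up with width in both lists, from 0.0476% of control peaks under 1000 bp to 32.9% (23.2 to 44.3%) of those of 2500 bp and more, and from 0.0145 to 11.1% (5.49 to 21.2%) in the knockout list. The gaps between neighbouring pieces were short, with a median of 280 bp (quartiles 231 and 382.5), and the pieces together kept a median of 78.6% of the bases of the control peak. With peaks closer than 500 bp joined in both lists, the counts were 140 and 55. Joining the knockout list alone, which can only lower the first count and raise the second, gave 41 and 314.

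Split control peaks and wide control peaks in general were mostly at gene ends. On assembled chromosomes 71.3% of them (66.7 to 75.5%) were at a gene end, against 40.4% of all control peaks, but 6257 of 8954 control peaks of 1000 to 1500 bp and 2344 of 2860 of 1500 bp and more were there too. In 234 split peaks that cover a listed gene start, 161 gap centres were downstream of the nearest start, at a median of 449 bp, and 75 were upstream of or at it, at a median of -476.5 bp. How far wide peaks reach to either side of a start was not compared. Only 18 gaps covered a start. In the 40 reverse cases, where a knockout peak met 2 control peaks, 24 gap centres were downstream and 16 upstream.

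**Figure D5:**
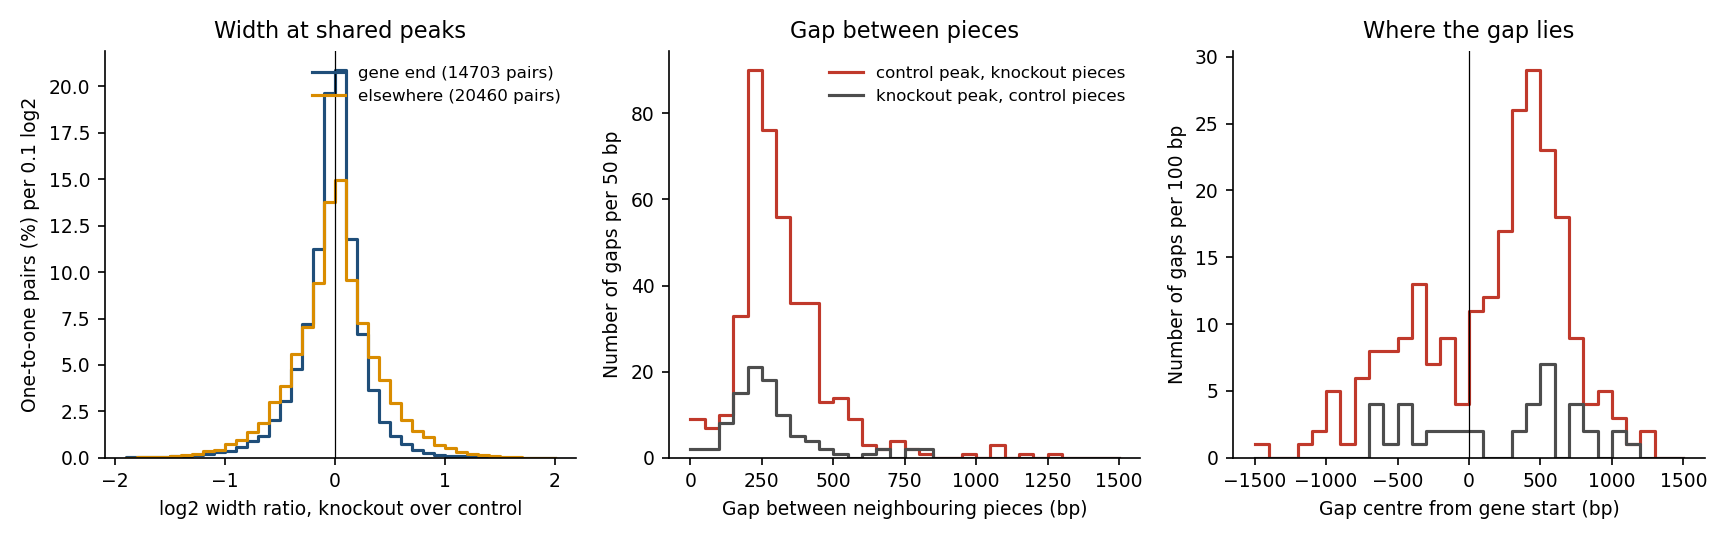
Left, log2 width ratio of one-to-one pairs at gene ends and elsewhere, as the percentage of pairs per 0.1 log2; middle, gaps between neighbouring pieces in bp; right, distance of the gap centre from the nearest gene start in bp, with counts for control peaks in knockout pieces (red) and for the reverse (grey). Both ratio curves centre near 0, the red gaps have a median of 280 bp, and 161 of the 236 red gap centres in peaks that hold a start lie downstream of it.

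The 2 control peaks that fell into 3 pieces were at SPHK1 and SIX4. At SPHK1, a kinase that makes sphingosine-1-phosphate, a control peak of 3230 bp (chr17:76383085-76386314) met knockout peaks of 808, 783 and 1013 bp. At SIX4, a homeobox gene of kidney and muscle development, a control peak of 3171 bp (chr14:60721325-60724495) met peaks of 586, 555 and 1181 bp. At SQSTM1, the autophagy receptor a selective cargo adaptor, a peak of 3168 bp met peaks of 1068 and 1568 bp (chr5:179818733-179821900). At ERBB4, a receptor tyrosine kinase gene, a control peak of 2859 bp met peaks of 2034 and 1032 bp (chr2:212536621-212539479). The widest reverse case was at ADGRL3, an adhesion receptor gene, where a knockout peak of 3417 bp met control peaks of 1211 and 1613 bp (chr4:61200003-61203419).

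Most genes did not differ in whether they had a peak at an end. A gene was counted as gaining or losing a peak when only the knockout or only the control list had one within 1 kb of its start or end. Such a peak was listed for 13234 of 19862 protein-coding genes in the control and for 13604 in the knockout. Among the 6628 genes lacking it in the control, 643 (9.7%) had one in the knockout list, 615 of them through peaks with no control counterpart. Of the 13234 genes with one in the control, 273 (2.06%) had none in the knockout list, 233 of them with control peaks that had no knockout counterpart. A further 301 genes (2.27%) had a split control gene-end peak. With the knockout list held to its 39194 widest peaks, 335 genes gained and 687 lost a gene-end peak, and removing knockout peaks can only lower the first count and raise the second.

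By the widest peak, the genes that gained one included several whose peak overlapped a control peak just outside the window, among them TP53I13 at 2392 bp, MAMLD1 at 2164 bp and SSTR1. The genes below had peaks with no counterpart and were chosen after their values had been seen. TMEM35A, a chaperone of nicotinic receptors, had a knockout peak of 1816 bp (chrX:101078796-101080611), 17.02 kb from any control peak. TTC7B, a subunit of a lipid kinase complex, had one of 1664 bp (chr14:90815402-90817065). ALDH1A1, which makes retinoic acid, had one of 1584 bp near the 3′ end of the gene (chr9:72900950-72902533). SLC1A2, a glutamate transporter, and THBS1 each had one of 1446 bp, and that of THBS1 (chr15:39579882-39581327) was 201 kb from the nearest control peak. CDA, cytidine deaminase, had one of 1406 bp, and ADAM12, a metalloprotease, one of 1303 bp, 115.8 kb from a control peak.

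Genes with a wide unmatched control peak, likewise chosen after their values had been seen, included GRB10. It had control peaks of 1550 bp at its start (chr7:50792500-50794049) and 533 bp near its other end, 27.3 and 43.2 kb from knockout peaks. HOMER3 had one of 1596 bp (chr19:18939954-18941549) and ZBTB7A one of 1494 bp (chr19:4065514-4067007), the latter 56.8 kb from a knockout peak. GPS1, a subunit of the COP9 signalosome, and RFNG, a modifier of Notch, share a peak of 1487 bp (chr17:82051201-82052687). INHBB, which encodes an activin subunit, had one of 1385 bp with a knockout peak only 0.493 kb away. TSHZ3, at 1917 bp, had a control peak that overlapped a knockout peak outside the window. By chromosome, the share of genes that lost a peak was highest on chromosomes 20 (4.14%), 11 (4.12%) and 7 (3.86%), and the share that gained one was lowest on chromosome 11 (4.40%).

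The promoter sequences of these genes differed in base composition. Windows of 300 bases, 250 before and 50 from a gene start, were compared for the 15842 coding genes with a listed start, some of which have several. In 492 windows with an unmatched knockout peak and no control peak, the median GC content was 57%, and in 240 windows with an unmatched control peak and no knockout peak it was 72.7%. It was 66.7% in the 12738 windows with a peak in both lists that was not split and 52.7% in the 8156 with a peak in neither. The ratio of observed to expected CpG followed, with medians of 0.451, 0.86, 0.85 and 0.291. The GC box was in 40.9% (36.6 to 45.3%) of the knockout-only windows and 75.4% (69.6 to 80.4%) of the control-only windows, against 56.3% of all 22198 windows. The TATA box, here the letters TATAAA, was in 13.0, 4.17 and 9.47% of them. The CCAAT box was in 29.7, 20 and 34.7%. The first 2 of these motifs followed GC content. In classes of GC content bounded at 50, 60 and 70%, the GC box was in 2.61, 23.6, 64.7 and 95.8% of knockout-only windows. It was in 18.2, 32.4, 74.5 and 97.0% of control-only windows, 22, 37, 47 and 134 in number. The TATA box went the other way, from 24.2 and 22.7% below 50% GC to 3.13 and 0.746% at 70% and more.

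The AP-1 letters TGANTCA, recognised by dimers of the FOS and JUN families, were more frequent in the knockout-only windows. They were in 74 of 492 (15.0%, interval 12.2 to 18.5%), in 3.75% of control-only windows (1.99 to 6.97%), in 3.59% of windows with a peak in both lists, in 9.82% of those with none, and in 6.15% of all. Windows of 1 gene can overlap. Since the letters depend on base composition, windows were also compared within classes of GC content. Below 50% GC, 23.5% of knockout-only windows held them (17.5 to 30.9%) against 12.6% of windows without a peak and 10.6% of those with a peak in both lists. At 50 to 60% GC the shares were 17.3% (11.7 to 24.8%), 10.6% (9.36 to 11.9%) and 4.87%, and the 37 control-only windows had 10.8% (4.29 to 24.7%). At 60 to 70% they were 11.2% (6.67 to 18.2%), 6.57% (5.50 to 7.83%) and 3.45%, so that the intervals of knockout-only windows and windows without a peak overlapped in both classes. At 70% GC and more only 3 of 96 knockout-only windows held the letters (3.13%). Without chromosomes 7, 11, 13, 18 and 19 the share in knockout-only windows was 16.2%. The letters CACGTG of the E-box were in 6.1% of knockout-only windows, 5.85% of windows without a peak and 8.34% of all windows. Those of the GATA site, AGATAAG, were in 4.88, 4.12 and 2.31%, and those of the ETS site, CCGGAAG, in 3.66, 3.84 and 12.8%. For both sites the knockout-only windows were thus close to windows without a peak. Those of the CRE, TGACGTCA, were in 3.25, 0.772 and 2.26%. These motifs were not compared within classes of GC content. A match describes the sequence and is not evidence of binding.

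Genes of immune signalling were described as groups, with the 9.7% gained and 2.06% lost over all coding genes as background. Of 31 cytokine and chemokine genes without a control gene-end peak, 5 had one in the knockout list (16.1%), all through unmatched peaks, and none of the 11 with a control peak lost it. They were IL11, with peaks of 510 and 530 bp, CCL20 with 593 bp, IL33 with 576 bp, IL2 with 414 bp and CXCL12 with 353 bp. Several were far from a gene start. The IL11 peaks lay 6786 and 174 bp from the nearest listed start, and those of CCL20, IL2 and CXCL12 4171, 5425 and 969 bp. The peak of IL33, an alarmin, covered a gene start (chr9:6215588-6216163). Among sensors of innate immunity, 3 of 20 gained one: IFI16, a sensor of DNA, the inflammasome component NLRP3, and TREX1, a nuclease that degrades cytosolic DNA. The TREX1 peak of 695 bp covered a gene start (chr3:48465345-48466039). The peaks of IFI16 and NLRP3, of 511 and 461 bp, lay 9877 and 31987 bp from the nearest listed start. That of IFI16 (chr1:158998604-158999114) was nonetheless within 1 kb of the lower bound of the gene, at 158999976. That of NLRP3 was by the upper bound of its gene. MYD88, the adaptor of Toll-like receptors, counted as lost, but its control peak of 989 bp overlapped a knockout peak outside the window.

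Of 12 interferon pathway genes without a control peak, ISG15 and GBP1 gained one (16.7%, against 9.7% over all coding genes). ISG15, a ubiquitin-like modifier, had a knockout peak of 898 bp (chr1:1013209-1014106), and GBP1, an interferon-induced GTPase, one of 1315 bp (chr1:89064051-89065365), both over a gene start. The nearest control peak to that of ISG15, 5.21 kb away, was an unmatched peak of 1351 bp at AGRN, a matrix proteoglycan gene (chr1:1019318-1020668), so these neighbours had opposite patterns. IRF7, a transcription factor of type I interferon genes, lost a control peak of 626 bp on chromosome 11 (chr11:615505-616130). It was the only loss among 40 interferon pathway genes with a control peak (2.5%, against 2.06% over all coding genes). JAK1 and IL6 each had a split control peak, the first of 1958 bp and the second of 1674 bp. Split peaks were at 1 of 40 interferon pathway genes (2.5%) and 1 of 11 cytokine and chemokine genes (9.09%). The share over all coding genes with a control gene-end peak was 2.27%. None of 5 NF-kappaB pathway genes without a control peak gained one, and none of 24 lost one.

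Developmental and lineage genes showed single differences in both directions, against 9.7% gained and 2.06% lost over all coding genes. Of the kidney developmental regulators, FOXC1 lost a control peak of 822 bp over its start (chr6:1609280-1610101), with a knockout peak 1.03 kb away, and none of 13 gained one. Of 32 neural genes with a control peak, TUBB3 and SYN1 lost it, at 708 and 295 bp. Among the SOX, T-box and GATA factors, SOX14 and TBXT gained peaks of 503 and 300 bp and SOX18 lost one of 875 bp. The TBXT peak lay 10634 bp from the nearest listed start. In the HOX clusters no gene gained a peak and 5 of 26 had a split one (19.2%, background 2.27%), but HOXC4, HOXC5 and HOXC6 share a single split peak of 2065 bp. Of 26 clustered protocadherin genes without a control peak, 5 gained one (19.2%), among them PCDHB15 with 812 bp, and PCDHB13 lost one of 529 bp.

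Housekeeping and growth genes mostly had a peak in both lists. Over all coding genes with a control gene-end peak, 2.06% lost it. All 23 genes of the m6A pathway, the writers, erasers and other readers of N6-methyladenosine, had a gene-end peak in both. Of 48 cell cycle genes, CCND1 and CDK6 lost theirs: CCND1, cyclin D1, a control peak of 419 bp (chr11:69641047-69641465), and CDK6, its kinase partner, peaks of 401 and 579 bp (chr7:92835603-92836003 and chr7:92836436-92837014). The nearest knockout peaks were 1.63, 1.23 and 2.06 kb away. CCND1 and CDK6 lie on chromosomes 11 and 7, where 4.12 and 3.86% of coding genes with a control gene-end peak lost it. Of 80 cytosolic ribosomal protein genes none lost a peak, and RPL36 gained one of 372 bp. Of 46 respiratory chain genes none lost one. In the IGF axis IGFBP1, a secreted IGF-binding protein, gained a peak of 480 bp and IGF2BP3 lost its own.

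Matrix genes and signalling genes stood as follows, against 9.7% gained, 2.06% lost and 2.27% split over all coding genes. Of 7 cytoskeleton, adhesion and matrix genes without a control peak, 3 gained one: THBS1, SPARC with 618 bp over its start (chr5:151686649-151687266), and COL1A2, a chain of type I collagen, with 345 bp. None of 44 lost one. In Wnt and TGF-beta signalling TCF7 gained a peak of 480 bp, which lay 24728 bp from the nearest listed start. SFRP1, a secreted Wnt antagonist, lost one of 645 bp, and WNT7A, ID1 and TGFBR1 had split peaks. Among the AP-1 factors and early response genes, MAFK lost a peak of 439 bp, FOS, DUSP6 and EGR3 had split control peaks of 2518, 2430 and 1866 bp (3 of 25, 12%), and none gained a peak. Their 27 one-to-one pairs had a median log2 width ratio of -0.10 (quartiles -0.31 and 0.08), against -0.0059 (-0.15 and 0.11) over the pairs of all coding genes. Other groups had lower or similar medians, at -0.13 in 55 pairs of core histone genes, -0.14 in 5 of keratin genes and -0.08 in 24 of HOX genes. The median was -0.34 in 29 of clustered protocadherin genes. In all these groups neighbouring genes can share a pair, which then counts more than once. For the clustered protocadherins both quartiles were also -0.34, so the 29 values are not 29 separate pairs and describe no family-wide difference. For the keratins the upper quartile equalled the median. Of 147 solute carrier genes without a control peak 23 gained one (15.6%), as did 9 of 378 olfactory receptor genes (2.38%).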

How the data were processed

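The authors deposited 1 peak list per group, with chromosome, start and end only and no score, signal or count per peak, per the file contents. The submitters' processing notes name fastp 0.24.1, BWA 0.7.17, MACS2 3.0.0, bedtools and build GRCh38. Their settings, the peak threshold and how the libraries of a group were combined are not given in the sources used here, so a deeper or less strictly called list could be longer for that reason alone. Peaks were compared in Python 3.11.15 with numpy 2.4.6, pandas 2.3.3 and scipy 1.17.1, and drawn with matplotlib 3.10.9. Gene positions and promoter sequences came from RefSeq (GRCh38.p14). Of 630 listed symbols, 628 matched a coding gene. Named by rule were the 8 widest unmatched peaks of each list at least 1 kb from the other list, the 8 peaks of each list in most pieces, the 6 pairs with the lowest and the 6 with the highest width ratio among peaks of at least 300 bp, the 6 longest runs, the 8 genes holding most unmatched peaks, the 8 with the widest gained or lost peak, and gained, lost or split genes of the lists; the text gives a part of these. The overlap, splitting and width code was tested on simulated data. The members and lists were chosen with earlier results of these data known. Alternatives covered overlap, joining, width, window, list length and chromosomes.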

Additional observations from a re-analysis of the deposited data

How the results depend on the processing

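No paired analysis was possible because both libraries of a group are in 1 list, and leaving out a library was not possible for the same reason. Of 61 alternative values for 13 results, 35 kept to their range (counts within 1.5 times, other values within the main interval) and 26 did not. With the knockout list held to its 39194 widest peaks, 73.41% of knockout and 73.1% of control peaks were shared, 10421 and 10543 were unmatched, 215 control peaks were split, the median log2 width ratio was 0.017, and 335, 687 and 177 genes gained, lost or had a split gene-end peak. Among peaks of at least 500 bp the shared percentages were 65.76 and 87.41 with 14930 knockout peaks unmatched. They were 60.25 and 91.65 when peaks within 500 bp counted as shared, and 60.49 and 91.5 without chromosomes 11, 13 and 18, a choice made after seeing the data. Joining peaks closer than 500 bp left 41 split control peaks when done in the knockout list and 140 when done in both, the latter also added after seeing the data. Widths divided by the median of their list gave a median ratio of 0.24. Gene-end shares of one-to-one knockout, unmatched knockout and unmatched control peaks were 36.47, 5.4 and 11.8% with a window of 200 bp and 56.63, 27.03 and 37.66% with 5 kb, where split control peaks reached 81.3%. Depth is unknown for both lists, so a region absent from 1 list was not called there and may still be accessible.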
